A study of Mus musculus with 26 samples.

Results

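The genes described here are 8 transcripts commonly used to mark the mural cells of blood vessels: Acta2, Tagln, Myh11, Cnn1, Kcnj8, Abcc9, Rgs5 and Vtn. They were chosen by name as markers of pericytes and smooth muscle, and each was found once among the 54532 genes of the count table, so 8 of 54532 genes are followed. The series holds 26 mouse libraries in 4 groups: 6 of immunoprecipitated (IP) astrocyte RNA from retina, 6 of input RNA from retina, 7 of IP RNA from the optic nerve head (ONH), and 7 of IP RNA from the myelinated optic nerve proper (ONP). All came from untreated mice at day 0, and the labels name no other treatment in any group. Strain, genotype, age, the tag or antibody used for the immunoprecipitation and the promoter that directs it to astrocytes are not given in the sources used here. The 12 retinal libraries belonged to batch 2, with 1 ONH and 1 ONP library (replicate 7 of each, prepared and sequenced alongside them to bridge the batches), and the other 12 optic nerve libraries were batch 1. In comparisons of retina IP with nerve, the batch term therefore rested on the bridging libraries set against the batch 1 nerve libraries. No label ties a library to an animal, and p-values therefore measure the spread between these libraries, which may be technical.

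Mural cells sit on the outer wall of blood vessels. Smooth muscle cells wrap arteries and arterioles and contract with a dedicated set of actin, myosin and actin-binding proteins, whereas pericytes lie along capillaries inside the basement membrane that astrocyte endfeet also touch. In brain and retina, both help to set vessel diameter and the blood-tissue barrier. The ATP-sensitive potassium channel of mural cells couples their membrane voltage to metabolism.

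Astrocyte markers were present in every IP library, beside markers of other cells. Summed over 10 astrocyte genes the level was 7588 to 38241 CPM (counts scaled to the library total) in retina IP, 7638 to 33036 CPM in ONH IP and 12684 to 40367 CPM in ONP IP, against 4094 to 7041 CPM in retina input. Of these 10 genes, 0 passed between retina IP and retina input, as did 0 of all 15181 genes tested there. All 10 had a positive log2 fold change (median 2.26), and no nerve input was analysed here. Summed over 10 oligodendrocyte genes it was 56.9 to 171 CPM in retina IP, 28165 to 71660 CPM in ONH IP and 35935 to 117914 CPM in ONP IP. The bridging ONH library stood apart from the other ONH libraries: 9 rod photoreceptor genes summed to 26611 CPM in it and to 23.8 to 482 CPM in the other 6. Results that rest on that library are given below with and without it. Library totals were 14703195 to 24966236 counts for retina IP, 14812762 to 26407745 for ONH IP, 14051088 to 27431026 for ONP IP and 11164619 to 18417001 for retina input. At these depths a count of 0 in 1 library allows a level of up to 0.109 to 0.269 CPM (3 counts, counting error only).

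Sequences before the RefSeq gene start are shown for Acta2, Cnn1, Kcnj8 and Rgs5, because the first 3 were lower in retina IP than in ONH IP and Rgs5 was higher. They were read from RefSeq promoter windows (GRCm38.p6, the mm10 build), which had an entry for 6 of the 8 genes. The motif searched was CC, then 6 bases of which at least 5 were A or T, then GG, the serum response element type found before many contractile genes; it reads the same on both strands. It occurred in 3280 of 32851 RefSeq promoter windows of 250 bases before to 50 after the start (9.98%), and in 1 of the 6 available windows of these genes, that of Acta2. A match is a description of these letters, and a window without one says nothing about the factor. The 2 Acta2 matches lie before the RefSeq start but inside the Acta2 gene of GENCODE M21, in an annotated exon, while the other 3 stretches lie before the GENCODE gene as well. The matches are printed with their flanks and the match in capitals, and the other stretches hold no match and are in lower case.
Acta2, upper match (chr19:34255438-34255467, minus strand, match starting 84 bases before the RefSeq start): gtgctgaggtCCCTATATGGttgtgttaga
Acta2, lower match (chr19:34255388-34255417, minus strand, match starting 34 bases before the RefSeq start): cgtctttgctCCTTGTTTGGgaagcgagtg
Cnn1 (chr9:22099003-22099215, plus strand): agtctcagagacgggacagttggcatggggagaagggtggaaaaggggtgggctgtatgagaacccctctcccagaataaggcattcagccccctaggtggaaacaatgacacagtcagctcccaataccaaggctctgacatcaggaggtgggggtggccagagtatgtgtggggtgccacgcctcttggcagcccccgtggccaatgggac
Kcnj8 (chr6:142571615-142571864, minus strand): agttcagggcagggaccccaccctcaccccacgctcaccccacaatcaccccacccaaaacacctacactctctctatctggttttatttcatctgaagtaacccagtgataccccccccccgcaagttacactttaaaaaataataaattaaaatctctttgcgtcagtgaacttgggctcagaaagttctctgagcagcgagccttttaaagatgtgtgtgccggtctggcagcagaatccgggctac
Rgs5 (chr1:169655251-169655500, plus strand): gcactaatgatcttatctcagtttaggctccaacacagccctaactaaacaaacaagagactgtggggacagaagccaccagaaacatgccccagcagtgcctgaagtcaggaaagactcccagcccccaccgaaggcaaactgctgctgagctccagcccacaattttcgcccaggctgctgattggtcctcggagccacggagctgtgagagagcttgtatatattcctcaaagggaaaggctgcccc

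The 4 contractile genes had their highest means in ONH IP, and in most retina IP libraries they were near the counting floor. Acta2 (ENSMUSG00000035783; mm10 chromosome 19, 34241090 to 34255590, minus strand), which encodes smooth muscle alpha-actin, had a lowest, median and highest level of 0.16, 0.457 and 7.92 CPM in retina IP. In ONH IP these were 26.9, 77.9 and 102 CPM, and in ONP IP 5.12, 12.9 and 42.8 CPM. Every retina IP library lay below every ONH library, the ONH and ONP libraries overlapped, and the retina IP and ONP libraries overlapped only through retina IP library 4. Retina IP averaged 1.79 ± 3.04 CPM (SD, n = 6), against 71.7 ± 27.6 CPM in ONH IP (n = 7), and the edgeR log2 fold change of retina IP over ONH IP was -4.87 (SE 0.913, adjusted p = 0.000471). In ONP IP the mean was 17.1 ± 13.7 CPM (n = 7), and Acta2 was lower in retina IP than there as well (log2 fold change -2.80, SE 1.02, adjusted p = 0.041, edgeR). In bulk RNA such as this, fewer cells of a type and less RNA per cell cannot be told apart.

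Cnn1 (ENSMUSG00000001349; chromosome 9, 22099216 to 22109630, plus strand) encodes calponin, an actin-binding brake on smooth muscle myosin. It was at the floor of the retinal libraries, with 7 counts in all 6 retina IP libraries together and 12 in the 6 input libraries. In ONH IP its lowest, median and highest levels were 10.7, 26.4 and 61 CPM, and in ONP IP 0, 1.53 and 4.09 CPM. Every ONH library thus stood above every ONP library and every retinal library, while the retina IP and ONP ranges overlapped. The mean was 0.0634 ± 0.106 CPM in retina IP, 32.6 ± 20.4 CPM in ONH IP and 1.59 ± 1.68 CPM in ONP IP (SD, n = 6, 7 and 7). Cnn1 was lower in retina IP than in ONH IP (log2 fold change -7.66, SE 1.12, adjusted p = 4.18e-05, edgeR) and higher in ONH IP than in ONP IP (4.46, SE 0.727, adjusted p = 0.00123). Retina IP over ONP IP gave -3.20 (SE 1.33), which did not pass (adjusted p = 0.0714).

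Tagln (ENSMUSG00000032085; chromosome 9, 45929619 to 45936058, minus strand) encodes transgelin, which binds actin filaments in smooth muscle. Its levels were low everywhere: 0, 0.0538 and 0.248 CPM as the lowest, median and highest in retina IP, 0.554, 1.57 and 3.14 CPM in ONH IP, and 0.0693, 0.153 and 0.984 CPM in ONP IP. All ONH libraries exceeded all retina IP libraries, and the ONH and ONP ranges overlapped. Tagln was lower in retina IP than in ONH IP (log2 fold change -4.33, SE 0.953, adjusted p = 0.00178, edgeR), and its value over ONP IP was -2.12 (SE 1.13, adjusted p = 0.159). Its counts are uncertain, because it overlaps Pcsk7 and Gm48529 on the other strand and 62.2% of its 31-base stretches also occur in annotated transcripts of those genes. Gm48529 itself averaged 0.209 CPM in retina IP, 0.222 CPM in ONH IP and 0.149 CPM in ONP IP. Pcsk7 averaged 16.3, 12.8 and 17 CPM in the same groups, above Tagln in each. The other 7 genes share 0 to 3.18% of such stretches with other genes.

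Myh11 (ENSMUSG00000018830; chromosome 16, 14194535 to 14291372, minus strand), the smooth muscle myosin heavy chain, was too low for a test in any comparison. It had 6 counts over the 6 retina IP libraries, 152 over the 7 ONH libraries, 15 over the 7 ONP libraries and 15 over the 6 input libraries. The ONH counts came mostly from replicates 1, 6 and 3, at 3.14, 2.87 and 0.947 CPM, while the other 4 ONH libraries lay between 0 and 0.0967 CPM. Per kilobase of exon, the ONH medians were 35.5 CPM for Acta2, 9.63 CPM for Cnn1, 0.791 CPM for Tagln and 0.0127 CPM for Myh11, so the contractile genes did not stand at one common level.

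**Figure D1:**
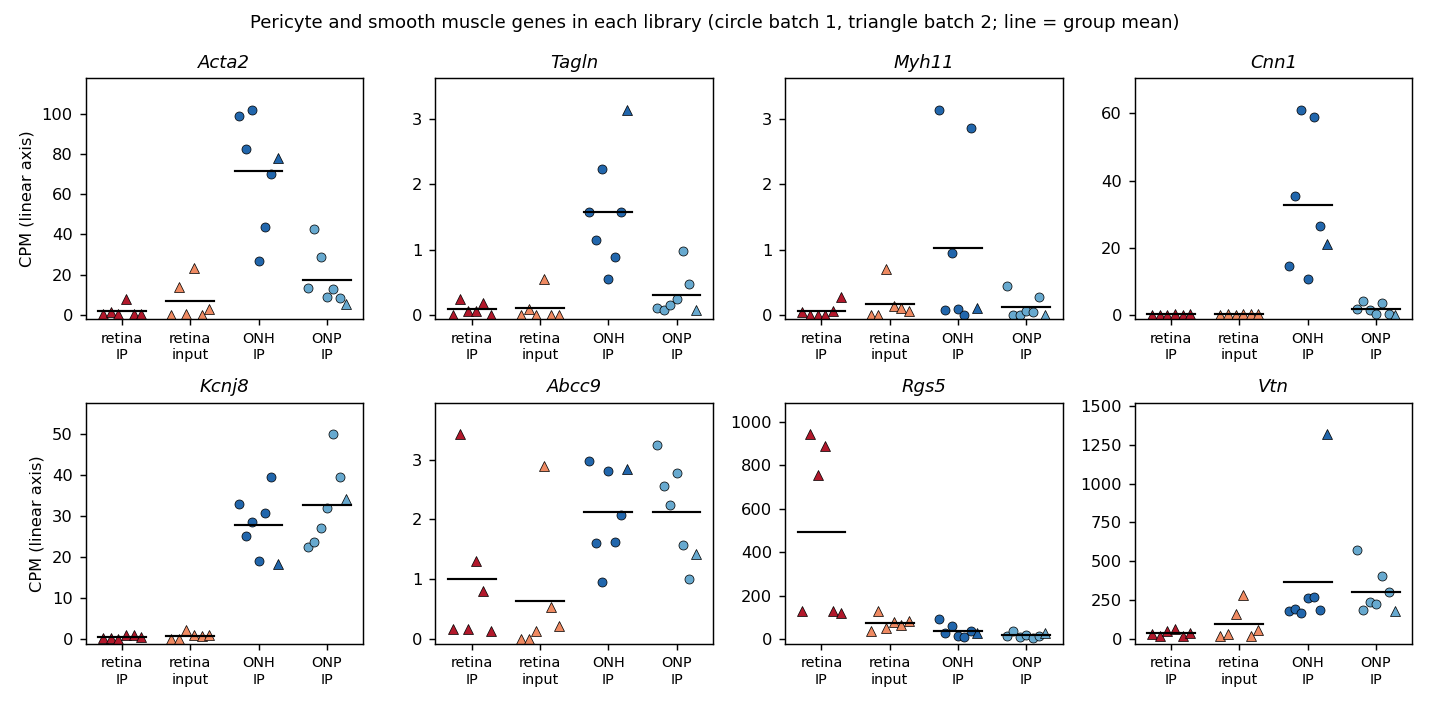
CPM of the 8 genes in each library (y axis, linear, a scale of its own in each panel) for the 4 groups, with retina on the left and optic nerve on the right; circles are batch 1, triangles batch 2, and lines group means. Acta2 and Cnn1 peaked in ONH IP, Kcnj8 was high in both optic nerve groups, and Rgs5 was highest in 3 of the 6 retina IP libraries.

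Kcnj8 and Abcc9 code for the pore and the regulatory sulfonylurea receptor subunit of the vascular ATP-sensitive potassium channel, and lie side by side on chromosome 6. Kcnj8 (ENSMUSG00000030247; 142564837 to 142571614, minus strand) was low in every retinal library and higher in every nerve library. Its lowest, median and highest levels were 0, 0.384 and 0.923 CPM in retina IP, 18.2, 28.6 and 39.4 CPM in ONH IP and 22.3, 32 and 49.8 CPM in ONP IP. The retinal IP libraries lay wholly below both nerve groups, and ONH and ONP overlapped. Retina IP averaged 0.484 ± 0.368 CPM, against 27.7 ± 7.63 CPM in ONH IP and 32.6 ± 9.71 CPM in ONP IP (SD, n = 6, 7 and 7). Kcnj8 was lower in retina IP than in ONH IP (log2 fold change -5.64, SE 0.539, adjusted p = 2.18e-07, edgeR) and than in ONP IP (-5.96, SE 0.525, adjusted p = 5.79e-08). ONH IP over ONP IP gave -0.32 (SE 0.333, adjusted p = 0.618).

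Abcc9 (ENSMUSG00000030249; 142587862 to 142702315, minus strand) did not share that contrast. It was 0.136, 0.48 and 3.42 CPM at lowest, median and highest in retina IP, 0.947, 2.07 and 2.98 CPM in ONH IP, and 1.01, 2.24 and 3.25 CPM in ONP IP. Retina IP library 2, at 3.42 CPM, lay above every nerve library and library 4, at 1.3 CPM, within their range, while the other 4 lay between 0.136 and 0.8 CPM, below every nerve library. The log2 fold changes were -1.17 over ONH IP (SE 0.849, adjusted p = 0.302, edgeR) and -1.23 over ONP IP (SE 0.908, adjusted p = 0.321). Without retina IP library 2 both passed, at -2.08 (adjusted p = 0.0349) and -2.14 (adjusted p = 0.0413). Per kilobase of exon the nerve medians of Kcnj8 were 11.2 CPM in ONH IP and 12.5 CPM in ONP IP, and those of Abcc9 0.247 and 0.267 CPM in the same groups.

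The paralogous pair Kcnj11 and Abcc8, the pore and receptor of the ATP-sensitive channel of neurons and pancreatic beta cells, had positive log2 fold changes of retina IP over both nerve groups. Abcc8 averaged 22.1 CPM in retina IP, against 0.665 CPM in ONH IP (log2 fold change 3.96, SE 1.39, adjusted p = 0.033, edgeR). In ONP IP it had 1 count in all 7 libraries, against 2578 in the 6 retina IP libraries and 102 in the 7 ONH libraries. The depth-scaled ratio of retina IP to ONP IP was therefore 2.81e+03, with an exact 95% counting interval of 504 to 1.11e+05. That interval covers counting error in the pooled counts only, and leaves out batch and the spread between libraries. Kcnj11 averaged 6.45 CPM in retina IP, 0.378 CPM in ONH IP and 0.0576 CPM in ONP IP. It was higher in retina IP than in ONP IP (5.23, SE 1.22, adjusted p = 0.00273, edgeR) and did not pass over ONH IP (2.61, SE 1.12, adjusted p = 0.0786). Both were also higher in ONH IP than in ONP IP (Kcnj11 2.62, SE 0.756, adjusted p = 0.0396, and Abcc8 adjusted p = 0.00387, edgeR). Neither passed between retina IP and retina input, as did 0 of all 15181 genes tested there, and Abcc8 averaged 15.1 CPM in input. The Abcc8 call over ONH IP was lost without the bridging ONH library (adjusted p = 0.364) or the bridging ONP library (0.0816), and the Kcnj11 calls over ONP IP without the bridging ONP library (0.0547 from retina IP and 0.0774 from ONH IP), the second also without the bridging ONH library (0.0776).

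Rgs5 (ENSMUSG00000026678; chromosome 1, 169655501 to 169695813, plus strand), a regulator of G-protein signalling and a widely used pericyte marker, was the member that was high in retina IP. It measured 130, 943, 755, 891, 128 and 119 CPM in retina IP libraries 1 to 6, and 38.5, 131, 49.9, 79.8, 63.1 and 82.4 CPM in the inputs of the same numbers. Retina IP libraries 2, 3 and 4 stood between 755 and 943 CPM, and libraries 1, 5 and 6 between 119 and 130 CPM, under the highest input library at 131 CPM. The nerve groups were lower, with a lowest, median and highest of 7.02, 27.6 and 92.6 CPM in ONH IP and 6.45, 16 and 35.8 CPM in ONP IP, so no retina IP library overlapped either. Means were 494 ± 409 CPM in retina IP, 37.7 ± 29.8 CPM in ONH IP, 17.4 ± 10.3 CPM in ONP IP and 74.2 ± 32.7 CPM in retina input (SD, n = 6, 7, 7 and 6). Rgs5 was higher in retina IP than in ONH IP (log2 fold change 3.51, SE 1.15, adjusted p = 0.0238, edgeR) and than in ONP IP (4.57, SE 1.19, adjusted p = 0.00598). Both calls were lost when only the groups compared were fitted, with the batch term. Over retina input the value was 2.56 (SE 0.642), which did not pass over all genes (adjusted p = 0.0651). ONH IP over ONP IP gave 1.06 (SE 0.59, adjusted p = 0.298).

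The retina IP libraries that were high in Rgs5 were also high in other genes. Pax8, which encodes a transcription factor, was at 34, 299, 338, 410, 45.5 and 44.5 CPM in retina IP libraries 1 to 6. Cd36, a fatty acid translocase, followed with 223, 1327, 2052, 2266, 286 and 286 CPM. The sum over 10 astrocyte genes was 24239, 33232 and 38241 CPM in libraries 2, 3 and 4, and 7588 to 10227 CPM in libraries 1, 5 and 6. The part of this split in the Rgs5 values was not tested. Among the other members, Acta2 was at 0.24, 1.49, 0.16, 7.92, 0.369 and 0.544 CPM in retina IP libraries 1 to 6. Abcc9 was at 0.16, 3.42, 0.16, 1.3, 0.8 and 0.136 CPM, and Kcnj8 at 0.36, 0.289, 0, 0.923, 0.923 and 0.408 CPM. Acta2 and Abcc9 were thus highest in libraries 2 and 4, as Rgs5 was, but low in library 3, and Kcnj8 was at 0 in library 3 and level in libraries 4 and 5.

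**Figure D2:**
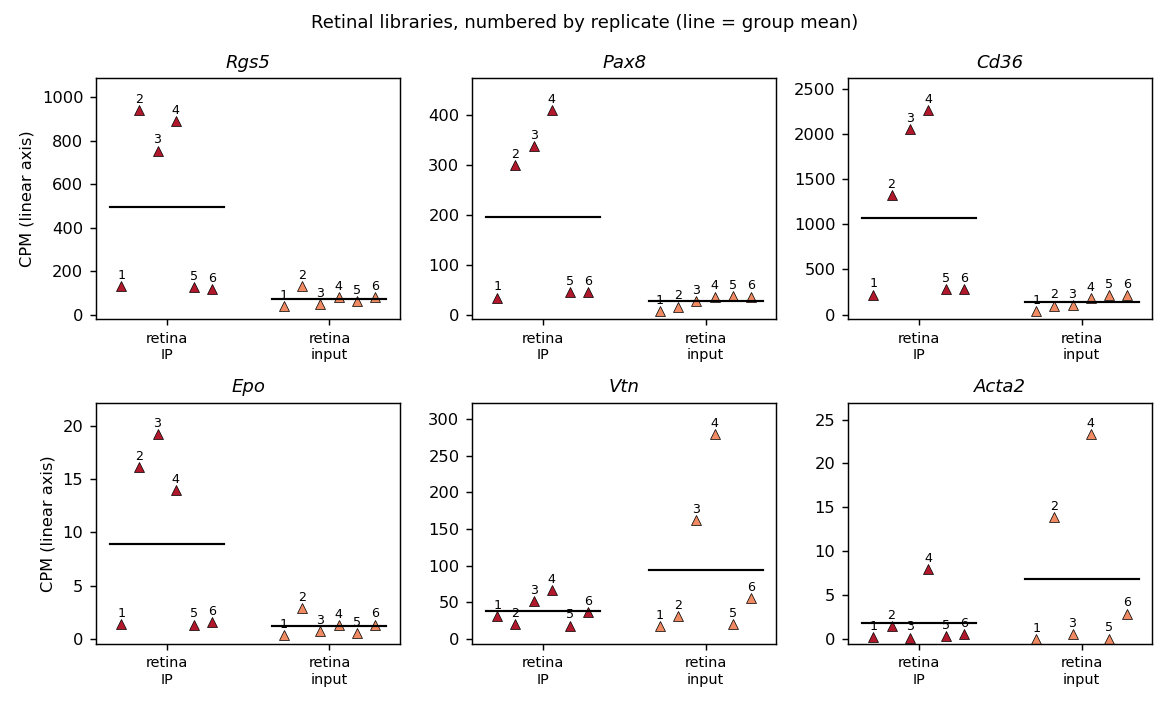
CPM (y axis, linear, a scale of its own in each panel) of 6 genes in the retina IP libraries and the retina input libraries, numbered by replicate, with lines at group means. Retina IP libraries 2, 3 and 4 were high in Rgs5, Pax8, Cd36 and Epo, and input libraries 3 and 4 were high in Vtn; input libraries 2 and 4 were the highest in Acta2.

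Vtn (ENSMUSG00000017344; chromosome 11, 78499091 to 78502324, plus strand) encodes vitronectin, a secreted adhesion protein used as a marker of brain pericytes. Its lowest, median and highest levels were 18.2, 34.3 and 67 CPM in retina IP, 166, 190 and 1317 CPM in ONH IP, and 180, 238 and 571 CPM in ONP IP. Every retina IP library lay below every nerve library, and ONH and ONP overlapped. Vtn was lower in retina IP than in ONH IP (log2 fold change -4.31, SE 0.525, adjusted p = 5.35e-06, edgeR) and than in ONP IP (-4.60, SE 0.617, adjusted p = 1.22e-05). The highest value, 1317 CPM, was in the bridging ONH library, the library with the high rod gene sum. In retina input Vtn reached 162 and 280 CPM in libraries 3 and 4, where the 9 rod genes summed to 4245 and 7454 CPM, and was 18 to 55.5 CPM in the other 4. In the 6 ONH libraries of batch 1 Vtn was 166 to 270 CPM and the rod sum 23.8 to 482 CPM. The part of rod RNA in the Vtn values was not tested. Without the bridging ONH library the differences were -1.70 over ONH IP (adjusted p = 0.0441) and -2.37 over ONP IP (adjusted p = 0.00124).

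Per kilobase of exon, Rgs5 had the highest retina IP median of the 8 at 97.4 CPM, followed by Vtn at 16.9 CPM, and the other 6 had medians of 0.00264 to 0.208 CPM. In ONP IP the order was Vtn at 117 CPM, Kcnj8 at 12.5 CPM, Acta2 at 5.89 CPM and Rgs5 at 3.52 CPM, with the other 4 at 0.0048 to 0.558 CPM. These medians are levels within a group and were not tested against each other.

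Against retina input, the immunoprecipitation left the 8 genes without a called difference. All 8 had overlapping retina IP and input ranges, where 1.37% of genes with a count had retina IP wholly above input and 1.26% wholly below. The count filter left 3 of the 8 for the test, and 0 of them passed, as did 0% of the 15181 genes tested by edgeR. At an unadjusted p under 0.05, edgeR had 1771 genes higher (11.7%) and 1585 lower (10.4%), and DESeq2 called 969 higher and 1103 lower after adjustment. Besides Rgs5, Vtn averaged 37.8 ± 18.8 CPM in retina IP, against 94.5 ± 106 CPM in input (-1.24, SE 0.606, adjusted p = 0.245), and Kcnj8 0.484 and 0.817 CPM (-0.67, SE 0.983, adjusted p = 0.762). Rgs5 was called with DESeq2 (2.48, adjusted p = 0.00228), without the count filter (2.62, adjusted p = 0.0483), without retina IP library 1 (2.76, adjusted p = 0.0404) and without retina IP library 5 (2.77, adjusted p = 0.0475). Acta2, not tested here, ranged over 0.16 to 7.92 CPM in retina IP, against 0 to 23.3 CPM in input.

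Against ONH IP, 7 of the 8 genes passed the count filter and Myh11 did not. Of these, 1 was higher in retina IP (Rgs5) and 5 were lower (Acta2, Tagln, Cnn1, Kcnj8 and Vtn), where 12.7% of all 16355 genes tested were higher and 21.1% lower. Genes with libraries wholly apart numbered 1 above and 5 below among the 8, where 6.43% of genes with a count lay above and 6.85% below. The median log2 fold change of the 7 was -4.33, beside -0.13 over all genes tested. Since the filter keeps a gene that is high in one group, the 7 are not a fair sample of their own levels.

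Several of these calls were lost without the bridging ONH library. Kcnj8 and Vtn were then called, where 10.2% of all genes were higher and 15.3% lower, and the other values were -3.46 for Acta2 (adjusted p = 0.0667), -1.66 for Tagln (0.599), -0.89 for Cnn1 (0.923) and 2.86 for Rgs5 (0.188), all adjusted p from edgeR. Without the bridging ONP library Rgs5 was at 4.17 (adjusted p = 0.0819). With only retina IP and ONH IP fitted, with the batch term, 0 of the 7 were higher and 5 lower. Of all genes 2.77% were higher and 10.4% lower in that fit. Within batch 2 alone, with the bridging library as the only ONH sample and its spread taken from the retinal libraries, Cnn1 (-8.14, adjusted p = 0.0106), Kcnj8 (-5.10, 0.0264) and Vtn (-4.98, 0.00318) passed, where 0.628% of all genes were higher and 3.62% lower. Acta2 gave -5.27 (0.084), Tagln -4.90 (0.0948), Rgs5 4.37 (0.212) and Abcc9 -1.40 (0.668) in that batch.

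Against ONP IP, which shares the retina IP libraries and the batch term with the preceding comparison, 1 of the 7 tested genes was higher (Rgs5) and 3 were lower (Acta2, Kcnj8 and Vtn). Over all 16355 genes 12.9% were higher and 19.9% lower. Libraries were wholly apart for Rgs5 above and for Kcnj8 and Vtn below, where 9.29% of genes with a count lay above and 7.6% below. The median over the 7 was -2.80, beside -0.10 over all genes tested. The filter was run on all 20 IP libraries, so a gene high in ONH IP alone could enter this comparison. With only retina IP and ONP IP fitted, with the batch term, 5 of the 8 were tested, with a median of -1.57. Of these 0 were higher and 2 lower, where 11.6% of all genes were higher and 15.1% lower. The Acta2 call was lost in 14 of 20 fits that each left out 1 library, with adjusted p from 0.000269 to 0.328, and kept without ONH library 1, ONP library 1, 4, 5 or 6, or retina IP library 4. Cnn1 passed without retina IP library 4 (-4.51, adjusted p = 0.0286) or ONP library 6 (-3.37, 0.0479), and without the bridging ONH library Cnn1 turned to 3.26 (0.648) and Tagln to 0.21 (0.943). Rgs5 missed the threshold without the bridging ONH library (4.10, adjusted p = 0.0627) and without the bridging ONP library (5.41, adjusted p = 0.0541). Within batch 2, where ONP is a single library, Kcnj8 passed (-6.05, adjusted p = 0.0104), and the others were Vtn -2.16 (0.062), Rgs5 4.33 (0.157), Acta2 -1.40 (0.618) and Abcc9 -0.45 (0.887). Tagln turned to 0.38 (0.93) there, and Cnn1 had 0 counts in that ONP library.

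Between the nerve regions, 1 of the 7 tested genes was higher in ONH IP than in ONP IP (Cnn1) and 0 were lower, where 4.43% of all 16355 genes were higher and 3.04% lower. Cnn1 was also the gene of the 8 whose libraries were wholly apart, where 0.781% of genes with a count had ONH wholly above ONP and 0.394% wholly below. Acta2 gave 2.07 (SE 0.658, adjusted p = 0.0599, edgeR) and Tagln 2.21 (SE 0.687, adjusted p = 0.0535). Fitted on the nerve libraries alone, with the batch term, Acta2 (2.07, adjusted p = 0.00734), Tagln (2.21, adjusted p = 0.0226) and Cnn1 (4.42, adjusted p = 0.00138) were all higher in ONH IP, where 7.66% of all genes were higher. The replicate numbers paired the ONH and ONP libraries, and with the number as a block in place of the batch term, on the nerve libraries alone, the values were Acta2 at 2.21 (adjusted p = 0.00152), Tagln at 2.56 (0.0216) and Cnn1 at 4.65 (0.000651). Within batch 1, which holds 6 libraries of each region and neither bridging library, the values were Acta2 at 1.81 (adjusted p = 0.0157), Tagln at 1.87 (0.0435) and Cnn1 at 4.15 (0.00301). Kcnj8 (-0.20), Abcc9 (-0.22), Rgs5 (1.23) and Vtn (-0.66) did not pass in that batch, with adjusted p from 0.071 to 0.718. Acta2 was also called without ONH library 4, ONP library 2 or retina IP library 1, 3 or 4, and Tagln without ONH library 4, ONP library 5 or retina IP library 1.

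**Figure D3:**
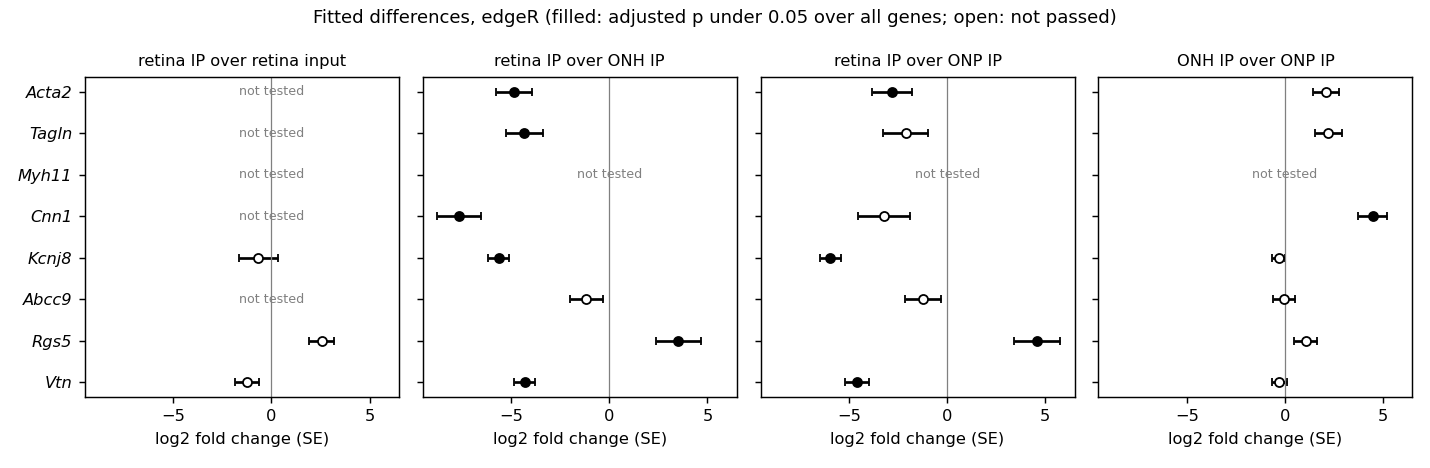
Log2 fold changes from edgeR with their SE (x axis) for the 8 genes in the 4 comparisons; filled points passed at an adjusted p under 0.05 over all genes, open points did not, and genes under the count filter are marked as not tested. Against ONH IP, 5 genes were lower and Rgs5 higher in retina IP, and Cnn1 was higher in ONH IP than in ONP IP.

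Other genes of the same cell types were followed in lists of 20 each. Of 16 tested smooth muscle genes, 1 was higher in retina IP than in ONH IP and 7 were lower, with a median log2 fold change of -1.47, where 12.7% of all genes tested were higher and 21.1% lower. Casq2, a calcium store protein of muscle, averaged 0.211 CPM in retina IP, against 36.4 CPM in ONH IP (-6.32, SE 0.801, adjusted p = 8.54e-06, edgeR). Mylk, the kinase that switches on smooth muscle myosin, averaged 2.67 CPM in retina IP, against 45 CPM in ONH IP (-4.34, SE 0.336, adjusted p = 1.35e-08). Actg2, smooth muscle gamma-actin, had 2 counts in retina IP and 69 in ONH IP, a depth-scaled ratio of ONH IP to retina IP of 29.1 (exact 95% counting interval 7.75 to 245). This interval leaves out batch and the spread between libraries, and single ONH libraries held 0 to 24 counts of Actg2. The higher gene, Sncg, also marks retinal ganglion cells; it averaged 849 CPM in retina IP, against 6.12 CPM in ONH IP (5.52, SE 0.916, adjusted p = 0.000151). Against ONP IP 2 of the 16 were higher (Sncg, and the integrin gene Itga8 at 3.09) and 7 lower, with a median of -1.17, beside 12.9% and 19.9% of all genes. Without the bridging ONH library the list gave 1 higher and 6 lower of 15 tested over ONH IP and 1 higher and 5 lower over ONP IP, where Itga8 was at 2.51 (adjusted p = 0.0946); without the bridging ONP library it gave 1 and 6, and 2 and 5, of 16. The shares of all genes higher and lower in these fits were 10.2% and 15.3% over ONH IP and 11.7% and 17.3% over ONP IP without the ONH library, and 4.44% and 13.9%, and 3.49% and 9.76%, without the ONP library. Within batch 2 the list gave 0 higher and 2 lower of 19 over ONH IP (0.628% and 3.62% of all genes), and 1 and 1 over ONP IP (4.06% and 4.71%).

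In ONH IP over ONP IP 5 of the 16 smooth muscle genes were higher and 1 lower, with a median of 0.57 beside 0.02 over all genes tested, of which 4.43% were higher and 3.04% lower. By sign, 13 were positive and 3 negative. Mylk averaged 45 CPM in ONH IP, against 12 CPM in ONP IP (1.83, SE 0.238, adjusted p = 0.000182, edgeR). Mustn1 averaged 11.9 CPM in ONH IP and 3.09 CPM in ONP IP (1.87, adjusted p = 0.00174). Tpm2, a tropomyosin (1.66, adjusted p = 0.0187), and Myl9, a regulatory myosin light chain (1.11, adjusted p = 0.0335), were higher as well. The lower gene was Ramp1, a co-receptor subunit for calcitonin gene-related peptide, which averaged 107 CPM in ONH IP and 221 CPM in ONP IP (-1.06, SE 0.304, adjusted p = 0.0383). Within batch 1 the list gave 7 higher and 1 lower of 15 (8.57% and 8.01% of all genes). On the nerve libraries alone it gave 6 and 1 with the batch term, and 8 and 1 with the replicate block in its place. Of all genes 7.66% were higher and 7.85% lower with the batch term, and 10% and 11.1% with the block. With either bridging library left out 4 were higher and 0 lower, and Myl9 (adjusted p = 0.0583 and 0.0586) and Ramp1 (0.0978 and 0.0997) missed the threshold. Of all genes 3.97% were higher and 2.16% lower without the ONH library, and 4.06% and 2.13% without the ONP library. Between retina IP and retina input 0 of 13 tested smooth muscle genes passed, as did 0 of all 15181 genes tested there.

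All 20 other pericyte genes were tested between regions. Retina IP was lower than ONH IP in 14 and higher in 2, with a median of -3.59, and lower than ONP IP in 14 and higher in 2, with a median of -3.21. Over all genes tested, 21.1% were lower and 12.7% higher than in ONH IP, and 19.9% lower and 12.9% higher than in ONP IP. Without the bridging ONH library 9 were lower than in ONH IP and 11 than in ONP IP, without the bridging ONP library 9 and 7, and 2 were higher in each of these fits. The shares of all genes lower were 15.3% and 17.3% without the ONH library and 13.9% and 9.76% without the ONP library. Within batch 2, with 1 nerve library a side, the median of the 19 tested was -2.95 over ONH IP and -3.12 over ONP IP. The medians over all genes were 0.10 and 0.23. With only the groups compared fitted, with the batch term, 8 of 19 were lower and 1 higher in retina IP than in ONH IP. Over ONP IP 8 of 18 were lower and 2 higher. Of all genes 10.4% were lower and 2.77% higher over ONH IP in these fits, and 15.1% and 11.6% over ONP IP. Tbx18, a transcription factor of mural cells, had 0 counts in all 12 retinal libraries and averaged 3.61 CPM in ONH IP and 2.17 CPM in ONP IP. By these means, its level was at least 22.7-fold lower in retina IP than in ONH IP and at least 13.6-fold lower than in ONP IP, taking 3 counts per library as the floor. These bounds leave out the spread between nerve libraries. The lowest, median and highest levels of Tbx18 were 0.878, 3.56 and 5.17 CPM in ONH IP and 0.328, 1.12 and 9.85 CPM in ONP IP. Mcam, an adhesion receptor of vessel walls, averaged 2.99 CPM in retina IP, 106 CPM in ONH IP and 124 CPM in ONP IP (-4.56, adjusted p = 2.1e-08, and -4.88, adjusted p = 4.73e-09, edgeR). Cspg4, which encodes a chondroitin sulfate proteoglycan and also marks oligodendrocyte precursors, averaged 0.825 CPM in retina IP, against 37.1 CPM in ONP IP (-5.66, adjusted p = 5.06e-07). The 2 genes higher in retina IP were Rgs4, a relative of Rgs5 that neurons also express, and Cox4i2, a cytochrome oxidase subunit. Rgs4 averaged 808 CPM in retina IP, 23.9 CPM in ONH IP and 15.3 CPM in ONP IP, and 775 CPM in retina input.

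**Figure D4:**
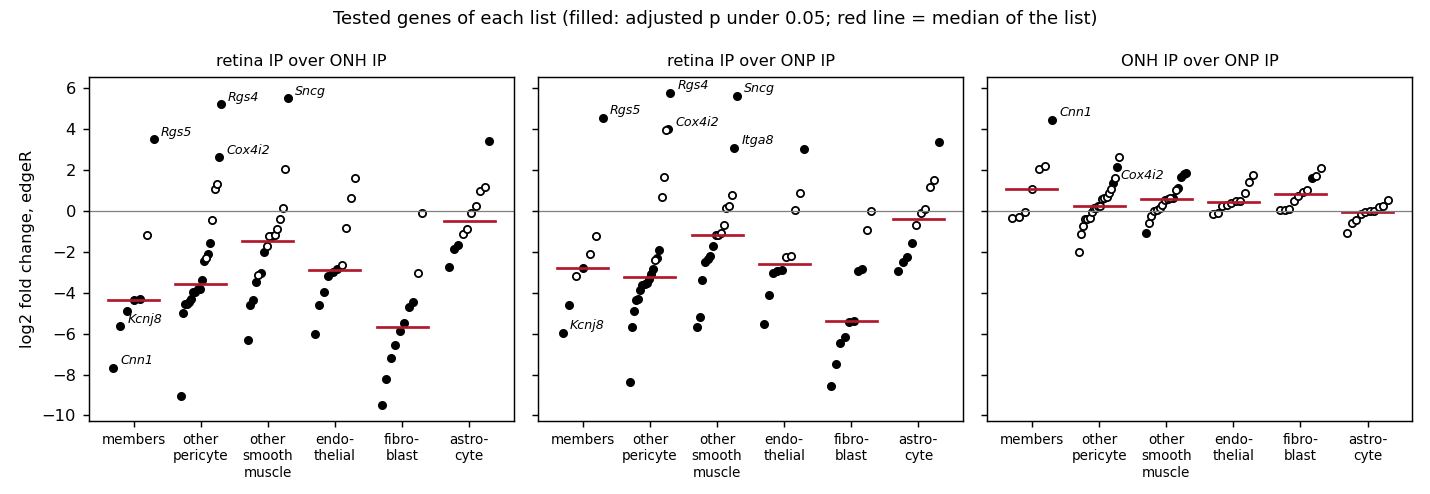
Log2 fold changes (y axis, edgeR) of the tested genes of the 8 followed here (members) and of 5 other lists in the 3 comparisons between regions; filled points passed at an adjusted p under 0.05 and red lines are list medians. In each comparison of retina IP with a nerve group 14 of 20 pericyte, 7 of 16 smooth muscle and 8 of 10 fibroblast genes were lower in retina IP, and Rgs5, Rgs4, Cox4i2 and Sncg were higher than in both, with Itga8 higher than in ONP IP.

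Markers of fibroblasts, endothelial cells, microglia, oligodendrocytes and rods also differed between the regions. Over all genes tested, 21.1% were lower and 12.7% higher in retina IP than in ONH IP, and 19.9% lower and 12.9% higher than in ONP IP. Of 10 fibroblast genes 8 were lower in retina IP than in ONH IP and 8 than in ONP IP, with 0 higher in either, among them Dcn at 0.939 CPM in retina IP, 167 CPM in ONH IP and 78.6 CPM in ONP IP. Their sum was 26.2 to 179 CPM in retina IP, 929 to 1958 CPM in ONH IP and 330 to 1566 CPM in ONP IP. Of 10 endothelial genes 6 were lower than in ONH IP and 5 than in ONP IP, and 1, Kdr, was higher than in ONP IP. Their sum was 57.3 to 286 CPM in retina IP, 20.1 to 366 CPM in ONH IP and 27.6 to 183 CPM in ONP IP, so these ranges overlapped. In retina IP the sum was mostly Kdr and Flt1, which averaged 106 and 35 CPM there, against 24.8 and 15.6 CPM in ONH IP. Cldn5 averaged 2.05 CPM in retina IP, 45.2 CPM in ONH IP and 30.6 CPM in ONP IP. By sign, 8 of the 10 were negative and 2 positive over ONH IP, and 7 and 3 over ONP IP. Without the bridging ONH library 7 fibroblast genes were lower in retina IP than in either nerve group, and 4 endothelial genes were lower than in ONH IP and 5 than in ONP IP. Of all genes 15.3% and 17.3% were lower in these comparisons. Without the bridging ONP library 3 endothelial genes were lower than in ONH IP and 1 than in ONP IP, where 13.9% and 9.76% of all genes were. Kdr missed the threshold over ONP IP without either bridging library (adjusted p = 0.0952 and 0.263, edgeR). Between ONH IP and ONP IP 0 endothelial genes and 1 fibroblast gene, Islr (1.64, adjusted p = 0.00128, edgeR), passed. Of all genes 4.43% were higher and 3.04% lower there. On the nerve libraries alone 2 fibroblast genes and 0 endothelial genes were higher in ONH IP with the batch term, and 5 and 1 with the replicate block in its place. The shares of all genes higher were 7.66% with the batch term and 10% with the block.

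Of 10 microglia genes 9 were lower in retina IP than in ONH IP and 10 than in ONP IP, where 21.1% and 19.9% of all genes were. Their sum was 141 to 264 CPM in retina IP, 356 to 3289 CPM in ONH IP and 439 to 4561 CPM in ONP IP, with no overlap between retina and nerve. Without the bridging ONH library the counts were 9 and 10 (15.3% and 17.3% of all genes), and without the bridging ONP library 8 and 8 (13.9% and 9.76%). All 10 oligodendrocyte genes were lower in retina IP than in either nerve group, in these refits as well. In ONH IP over ONP IP all 10 microglia and all 10 oligodendrocyte genes had a negative log2 fold change (medians -0.53 and -1.02), of which 0 and 2 passed. Of all genes 3.04% were lower and 4.43% higher there. On the nerve libraries alone 1 and 9 passed with the batch term, and 4 and 10 with the replicate block in its place. The shares of all genes lower were 7.85% and 11.1% in these fits. The 9 rod genes were all higher in ONH IP than in ONP IP (median 4.26), also without either bridging library. With the batch term they were all called lower in retina IP than in ONH IP, but 2 of 9 were without the bridging ONH library. All 9 were higher in retina IP with the block and no batch term, fitted on the replicate numbers those 2 groups share. The rod sum was 326 to 1666 CPM in retina IP, 23.8 to 482 CPM in the batch 1 ONH libraries and 26611 CPM in the bridging ONH library. The sign thus changed with the fit, so it does not say which region held more rod RNA. The part of these cells in the differences of the 8 genes was not tested.

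Within groups, the genes that varied most like Acta2 and Rgs5 from library to library differed. Likeness was Pearson's r of log2 CPM after the mean of each group in its batch was taken off, over 24 libraries and 13528 genes, as a description. For Acta2 the highest were Mgp (0.83), Cldn5 (0.83), Jag1 (0.82), Sh2d1a (0.80) and Ly6c1 (0.79). For Rgs5 they were Epo (0.90), Tmem88 (0.87), Cd36 (0.86), Ndufa4l2 (0.86) and Grrp1 (0.85). Among the 8 genes the highest r was between Acta2 and Cnn1 (0.56), and Acta2 and Rgs5 had 0.49, Kcnj8 and Abcc9 0.43 and Rgs5 and Kcnj8 -0.22. The libraries share batch, depth and the retina IP split described above.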

How the data were processed

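Poly(A) RNA was measured in 26 mouse libraries made with an ultra-low input kit, per the labels' protocols. The deposited table holds the authors' estimated counts per gene, quantified with Salmon 1.6.0 against mm10, per the submitters' processing notes; the annotation and any filters are not given in the sources used here. The estimated counts were already whole (0 values had a fraction). Symbols were matched through GENCODE M21 for 54409 of 54532 genes, and 22279 genes had 0 counts throughout. Whether counting used strand is not given in the sources used here.

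The 8 genes and all marker lists were chosen with earlier results of these data known. Named list genes were up to 4 called genes with the largest difference per list and comparison, and lists held 2, 9, 10 or 20 genes; 1 further gene is not reported here. Actg2 and Abcc8, with few counts in one group, are given as counts. Genes set beside Rgs5 or Vtn (Pax8, Cd36, Epo) were named for the values shown beside them, and Flt1 for its part in the endothelial sum. CPM is the count over the deposited total of the library.

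Tests used edgeR 4.0.16 in R 4.3.3: TMM size factors, filterByExpr (minimum count 10, minimum total 15), the quasi-likelihood F test, Benjamini-Hochberg adjustment over all genes tested and a call at an adjusted p under 0.05. Retina IP was set against retina input on 12 libraries, and the regions to each other on the 20 IP libraries, with batch as a term. Retina was in batch 2 alone, so that term was set by the bridging libraries against the batch 1 nerve libraries. Fitted differences of retina IP from nerve, and their p-values, therefore lean on the bridging libraries and can depart from ratios of group CPM. Code was tested on simulated data. Alternatives were RLE size factors, no count filter, DESeq2 1.42.0, omission of the batch term, each batch alone, fits of 2 groups only, a replicate block (between regions, on the groups compared and without the batch term) and leaving out each library. The marker lists were refitted without the bridging libraries, on the groups compared and with the block after seeing the data. Replicate numbers in the labels paired ONH and ONP: same-numbered libraries deviated together in 6 of 6 pairs (r 0.16 to 0.49), and in 5 of 6 best with their own number. For retina IP with input r was -0.16 to 0.24, and 3 of 6 libraries were best with their own number, so pairing there is not settled. With the number as a block, 0 genes passed in that comparison, as without it. For retina IP with ONH (-0.13 to 0.22) and with ONP (-0.17 to 0.12) 1 of 6 was best with its own number. No libraries were duplicates; the closest pair differed with a chi-square of 17.2 per degree of freedom. Sequences and their coordinates are from RefSeq promoter windows. Figures were drawn with matplotlib 3.10.9.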

Additional observations from a re-analysis of the deposited data

Results flagged for a closer look

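In 8 of 32 sets of libraries (8 genes in 4 groups), 1 library lay farther from the rest than the group's range allowed for at the 95% level, on linear CPM. That level holds for normally distributed values, so the number of sets flagged cannot be set against a rate given by chance. Most of the 8 sets were of genes near the counting floor. In retina IP these were Acta2 at 7.92 CPM and Cnn1 at 0.271 CPM, both in library 4, Abcc9 at 3.42 CPM in library 2 and Myh11 at 0.272 CPM in library 6. In retina input they were Abcc9 at 2.9 CPM and Tagln at 0.54 CPM, both in library 4, and Myh11 at 0.701 CPM in library 3. In ONH IP it was Vtn at 1317 CPM in the bridging library, where the other 6 lay between 166 and 270 CPM.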

How the results depend on the processing

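Log2 fold changes were refitted without 1 library for each of the 8 genes in the comparisons where it was tested, which leaves out Myh11. Of these 456 values, 413 kept their direction and side of the threshold, 21 lost and 14 gained a call, and 8 changed sign. Of 157 under the other alternatives the numbers were 130, 10, 13 and 4. Kcnj8 and Vtn were called lower in retina IP than in ONH IP and ONP IP in all 20 such fits each. The number of the 8 genes called was 1 without the count filter and 1 with DESeq2 for retina IP over input (0 to 1 without 1 library). For retina IP over ONH IP it was 3 in batch 2 alone (2 to 7 without 1 library), and for retina IP over ONP IP 2 with only the groups compared and 1 in batch 2 alone (2 to 5). For ONH IP over ONP IP it was 3 with DESeq2, 3 with only the groups compared, 3 in batch 1 alone and 3 with the replicate block (1 to 3). Between regions the block was fitted on the groups compared, without the batch term, so these choices moved together: it gave the calls of Acta2 and Tagln in ONH IP over ONP IP, which fitting only the groups compared gave too, and that of Abcc9 in retina IP over ONP IP (-2.19, adjusted p = 0.0367), and changed no other call of the 8 genes. For retina IP over ONP IP, Tagln was 0.38 and Cnn1 3.42 in batch 2 alone, and without 1 library they ran from -3.18 to 0.21 and from -4.51 to 3.26. Kcnj8 over input was 0.04 with the replicate block, Vtn over ONP 0.19 in ONH IP without the batch term, and Abcc9 over ONP in ONH IP -0.21 to 0.08 without 1 library. The causes were not tested. Over all genes (higher and lower), retina IP over input gave 152 and 41 without the count filter, 969 and 1103 with DESeq2, and 1 and 48 without input libraries 1 and 2. Retina IP over ONH IP gave 437 and 1632 with only the groups compared, 121 and 697 in batch 2, and 3871 higher without the batch term and 3877 with the block, which also lacks that term. Retina IP over ONP IP gave 783 and 907 in batch 2, and 4225 and 3788 higher in the same fits. ONH IP over ONP IP gave 1150 and 891 with DESeq2, 1133 and 1161 with only the groups compared, 1264 and 1181 in batch 1, 1481 and 1637 with the block, and 320 lower without the filter. Depth limits Myh11, Tagln and, in retina, Cnn1, which lie near the limit a count of 0 allows.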
